A study of Bubalus bubalis with 8 samples.

Results

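The passage of water buffalo (Bubalus bubalis) embryos into the 4-cell stage was examined by setting the 4-cell and 8-cell libraries on one side and the GV oocyte, MII oocyte and 2-cell libraries on the other. These are 5 of the 8 libraries of the series, and the remaining 3 (16-cell, morula and blastocyst) were used to follow the same transcripts later. The GV oocyte is immature, still holding its germinal vesicle, and the MII oocyte is mature, arrested at metaphase II. All embryos were parthenogenetic, made in vitro by activating the egg without sperm, so none of the libraries carries a sperm-derived genome. Each stage is 1 library, and the sources used here do not say how many oocytes or embryos it holds. Stages are not replicates of a side, so no difference below has a replicate error or a test.

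An oocyte stores the messenger RNA that runs the first cleavages. These maternal transcripts are cleared in steps as the embryo's own genome starts to be transcribed, a handover called the maternal-to-zygotic transition. In cattle, a close relative, the main wave of genome activation is placed at the 8-cell to 16-cell stages and is preceded by a minor wave in earlier cleavage. The levels below show neither clearance nor transcription directly.

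The deposited table holds FPKM (fragments scaled for transcript length and for library size) for 28659 gene IDs. Of these, 9191 reached 10 FPKM in at least 1 of the 5 libraries and were compared on the log2(FPKM + 1) scale. They were 7938 IDs of the form gene plus digits, referred to as numbered IDs, and 1253 new-gene IDs, so called in the table itself. None of the 28659 IDs could be tied to a gene symbol, so genes are described in groups, no marker gene could be used to check a stage label, and at most 2 IDs are named in each direction. FPKM is a share of a library: it cannot tell fewer cells of a type from less RNA per cell, or the loss of a transcript from the gain of others. The sum of FPKM ran from 892286 to 1146980 in the 5 libraries and reached 2501133 in the morula library. Read depth is unknown.

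An ID was called lower when its highest value at the 4-cell and 8-cell stages lay at least 1 log2 unit under the lowest of its GV, MII and 2-cell values, and higher in the opposite case. This distance between the nearest values of the sides is the gap. With it, 642 IDs were lower (6.99% of the 9191) and 416 were higher (4.53%) at the 4-cell and 8-cell stages. A gap of at least 2 log2 units left 84 lower IDs (0.914%) and 102 higher IDs (1.11%). Without any minimum gap the sides did not overlap for 2763 lower IDs (30.1%) and 2253 higher IDs (24.5%), so most separations were small. Among lower IDs the gaps nearest the threshold of 1 were 1.0005 inside and 0.9998 outside, and among higher IDs 1.0016 and 0.9997. Within 0.1 log2 units of it were 112 lower IDs inside and 117 outside, and 83 higher IDs inside and 82 outside. At the threshold of 2 the nearest gaps were 2.007 inside and 1.9998 outside for lower IDs, and 2.0007 and 1.986 for higher IDs.

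Of the called IDs 60.7% were lower as deposited and 61.4% (633 lower and 398 higher) with median-of-ratios scaling. The balance turned, to 48.3% (478 lower and 512 higher), when each library was rescaled to the same sum, a change that shifts all IDs of a library alike and moved the median difference over all IDs by 0.19 log2 units. The count of lower IDs was 1028 without the 2-cell library and 1168 without the 8-cell library, and that of higher IDs was 752 and 968. At the gap of 2, lower IDs were 150 without GV, 220 without the 2-cell, 134 without the 4-cell and 218 without the 8-cell library, and higher IDs were 254 without the 8-cell library.

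**Figure D1:**
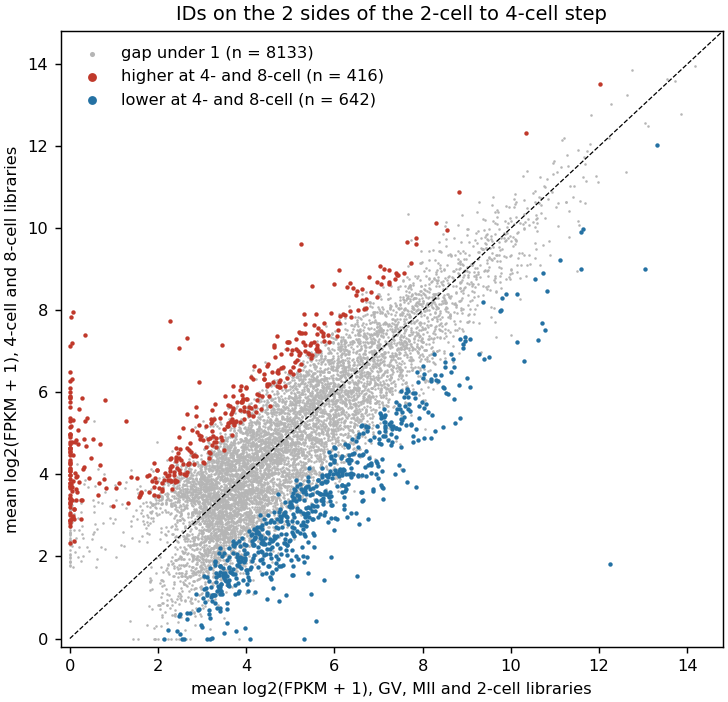
Each point is 1 of the 9191 IDs compared, with its mean log2(FPKM + 1) in the 4-cell and 8-cell libraries on the vertical axis and in the GV, MII and 2-cell libraries on the horizontal axis; the dashed line marks equal levels. The 416 higher IDs include a column at the left edge, at or near 0 in the oocyte and 2-cell libraries. The 642 lower IDs lie under the dashed line at all levels.

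Lower IDs came from all levels of abundance. Among the 1031 IDs whose highest value in the 5 libraries was 300 FPKM or more, 92 (8.92%) were lower and 44 (4.27%) were higher, against 182 (5.11%) and 137 (3.85%) of the 3561 IDs between 10 and 30 FPKM. Numbered and new-gene IDs were called lower about equally often, 558 of 7938 (7.03%) and 84 of 1253 (6.70%), and likewise higher, 363 (4.57%) and 53 (4.23%). At the gap of 2, higher IDs were 75 of the numbered IDs (0.945%) and 27 of the new-gene IDs (2.15%). No test bears on these differences.

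Most of the 642 lower IDs were oocyte transcripts at 10 FPKM or more that were still detected at the 4-cell and 8-cell stages. At the 4-cell stage their median was 7.57 FPKM and at the 8-cell stage 8.08 FPKM, against 44.2 FPKM in the GV, 49.5 FPKM in the MII and 32.0 FPKM in the 2-cell library. As a group they held 2.15% and 2.70% of the FPKM sum at the 4-cell and 8-cell stages, against 10.5%, 11.3% and 9.17% in the GV, MII and 2-cell libraries. At the 4-cell and 8-cell stages 249 of the 642 were at 10 FPKM or more in both libraries, against 513 in all 3 of the GV, MII and 2-cell libraries. In both libraries 28 of the 642 (4.36%) were under 1 FPKM, against 65 of all 9191 IDs (0.707%), and 2 were listed at 0. The rule chose the 642 for low values in these libraries, so that excess is partly fixed by the choice. Of the 28, 14 were also under 1 FPKM in the 16-cell, morula and blastocyst libraries.

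Before the 4-cell stage the lower IDs were already uneven. The 2-cell value was the lowest of the GV, MII and 2-cell values for 341 of the 642, the GV value for 176 and the MII value for 125, whereas over all 9191 IDs the 2-cell value was the lowest for 2593. The median log2 difference of the 642 IDs was 0.16 from GV to MII, -0.50 from MII to 2-cell, -1.89 from 2-cell to 4-cell and 0.13 from 4-cell to 8-cell. Over all IDs compared, these medians were -0.07, 0.05, -0.11 and -0.06. The rule fixes the sign of the 2-cell to 4-cell difference but not that of the others. After it, the 8-cell value lay above the 4-cell value for 399 of the 642 lower IDs (62.1%), against 4139 of all 9191 IDs (45.0%). Within the sides, the values of the 642 spread by a median of 0.34 log2 units between the 4-cell and 8-cell libraries. Over the GV, MII and 2-cell libraries their median spread was 1.02 log2 units. For all IDs compared these spreads were much alike, 0.36 and 0.94 log2 units. The median gap of the 642 was 1.37, where the rule itself asks for at least 1.

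The higher IDs were of 2 kinds, set apart here after their values were seen: 313 that had 1 FPKM or more in at least 1 of the GV, MII and 2-cell libraries, and 103 that were under 1 FPKM in all of them. The 313 had a median of 59.6 and 49.7 FPKM in the 4-cell and 8-cell libraries, against 12.8 FPKM in the GV, 14.1 FPKM in the MII and 16.2 FPKM in the 2-cell library. For 244 of them (78.0%) the 8-cell value was below the 4-cell value, against 5039 of all 9191 IDs (54.8%). The 2-cell value was the highest of the GV, MII and 2-cell values for 183 of the 313, against 2718 of the 9191.

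The 103 IDs from under 1 FPKM had a median of 16.8 and 17.7 FPKM in the 4-cell and 8-cell libraries, against a median listed at 0 in each of the GV, MII and 2-cell libraries. In all, 52 of them were listed at 0 in the GV, MII and 2-cell libraries alike. They made up 82 of the 102 higher IDs with a gap of at least 2. In the whole comparison 173 IDs were under 1 FPKM in the GV, MII and 2-cell libraries and reached 10 FPKM at the 4-cell or 8-cell stage; the other 70 missed the gap of 1 in 1 of the libraries, and 44 of the 173 reached 10 FPKM in both.

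**Figure D2:**
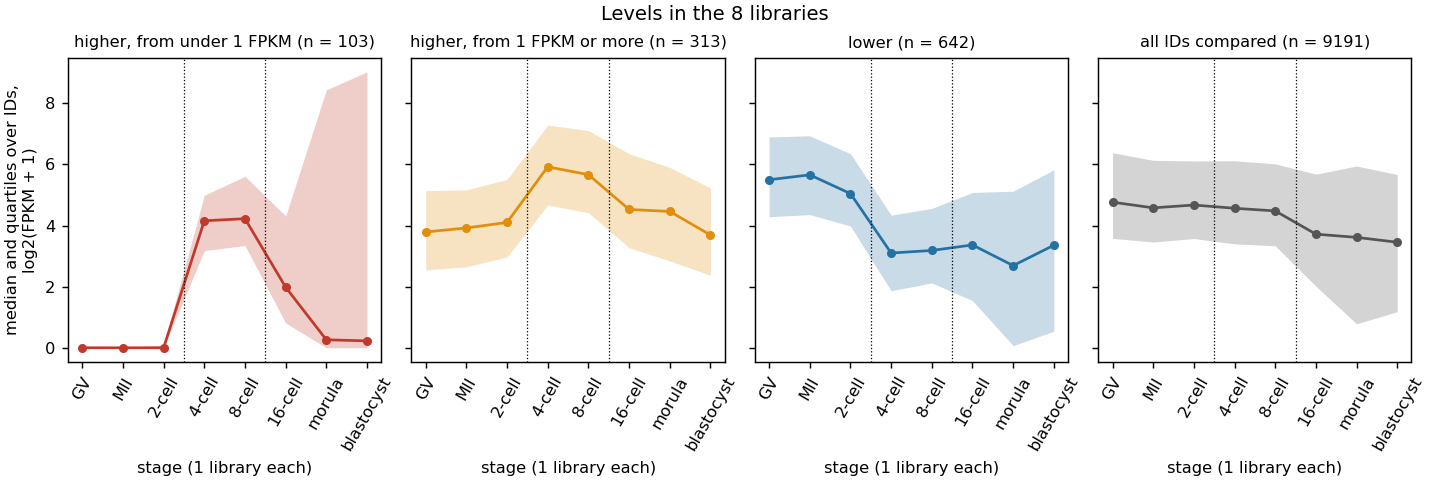
Median (points) and quartiles (shading) of log2(FPKM + 1) over IDs in each of the 8 libraries, in order of stage, for the 103 higher IDs from under 1 FPKM, the 313 other higher IDs, the 642 lower IDs and all 9191 IDs compared; dotted lines bound the 4-cell and 8-cell libraries. The upper quartile of the 103 IDs climbs to 346 FPKM in the morula and 521 FPKM in the blastocyst while their median is 0.198 and 0.169 FPKM.

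The levels in the 16-cell, morula and blastocyst libraries did not enter the rule. They were set against the GV, MII and 2-cell values, which did enter it. The later shares below are therefore not independent of the call, and are partly fixed by it. An ID counted as still lower in a later library when it was at least 1 log2 unit under the lowest of its GV, MII and 2-cell values. Of the 642 lower IDs, 282 (43.9%) were still lower in all 3 later libraries, against 2728 of all 9191 IDs (29.7%). In no later library still lower were 163 of the 642 (25.4%), against 41.6% of all IDs. With a gap of at least 2, 53 of the 84 lower IDs (63.1%) were still lower in all 3. The 282 IDs had a median of 2.38 FPKM in the 16-cell, 0.0805 FPKM in the morula and 0.499 FPKM in the blastocyst library. Their 4-cell and 8-cell medians, 8.41 and 9.79 FPKM, lay between these and their medians of 52.8, 59.3 and 40.3 FPKM in the GV, MII and 2-cell libraries.

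That share differed between the kinds of ID. Of the 84 lower new-gene IDs 76 (90.5%) were still lower in all 3 later libraries, and of the 558 lower numbered IDs 206 (36.9%). Over all IDs compared these shares were 66.4% for new-gene and 23.9% for numbered IDs. New-gene IDs were seldom seen late at all, with 79.9% of the 1253 compared under 1 FPKM in both the morula and the blastocyst libraries, against 11.2% of the numbered IDs. The part of this in the count of lower IDs was not tested.

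Some lower IDs dipped at the 4-cell and 8-cell stages and were high again later. An ID was called back when at least 1 later library was at or above the lowest of its GV, MII and 2-cell values, and 268 of the 642 lower IDs (41.7%) were back, against 55.6% of all IDs. Of the 642, 180 (28%) were back in the 16-cell library, 163 (25.4%) in the morula, 209 (32.6%) in the blastocyst and 105 (16.4%) in all 3. Over all IDs these shares were higher, at 41.8%, 41.5%, 39.4% and 26.4%. With a gap of at least 2, 23 of the 84 lower IDs (27.4%) were back in at least 1 later library. The 268 IDs had medians of 29.4, 34.8 and 59.9 FPKM in the 16-cell, morula and blastocyst libraries, in which the return was partly fixed by their choice. Their medians were 5.75 and 6.30 FPKM in the 4-cell and 8-cell libraries, against 43.1, 41.3 and 22.6 FPKM in the GV, MII and 2-cell libraries. Being back was judged on FPKM as deposited, whose sum was 2501133 in the morula and 2239886 in the blastocyst library. In the 5 libraries compared it ran from 892286 to 1146980. As a share of the sum, the 268 held 2.945%, 2.56% and 3.005% in the 16-cell, morula and blastocyst libraries. In the GV, MII and 2-cell libraries they held 3.39%, 2.67% and 1.99%. After rescaling to the same sum, 34.5% of the 478 lower IDs then called were back. Only 5 of the 268 were new-gene IDs.

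Fewer of the higher IDs stayed higher in every later library than in none of them. Of the 416, 55 (13.2%) were still higher in all 3 later libraries, that is at least 1 log2 unit above the highest of their GV, MII and 2-cell values, against 571 of all 9191 IDs (6.21%). Another 181 (43.5%) were still higher in none of the 3, against 75.2% of all IDs. With a gap of at least 2, 16 of the 102 higher IDs (15.7%) were still higher in all 3 later libraries and 46 (45.1%) in exactly 1, against 10.1% of all IDs in exactly 1. By library, 175 were still higher at the 16-cell stage (42.1%), 145 in the morula (34.9%) and 99 in the blastocyst (23.8%), against 13.5%, 17.4% and 14.7% of all IDs. At least 1 later value was back at or below the highest of the GV, MII and 2-cell values for 294 of the 416 (70.7%), against 86.6% of all IDs. Asked of fewer later libraries, which can only raise it, the share still higher was 21.2% without the 16-cell library and 22.4% without the blastocyst library.

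**Figure D3:**
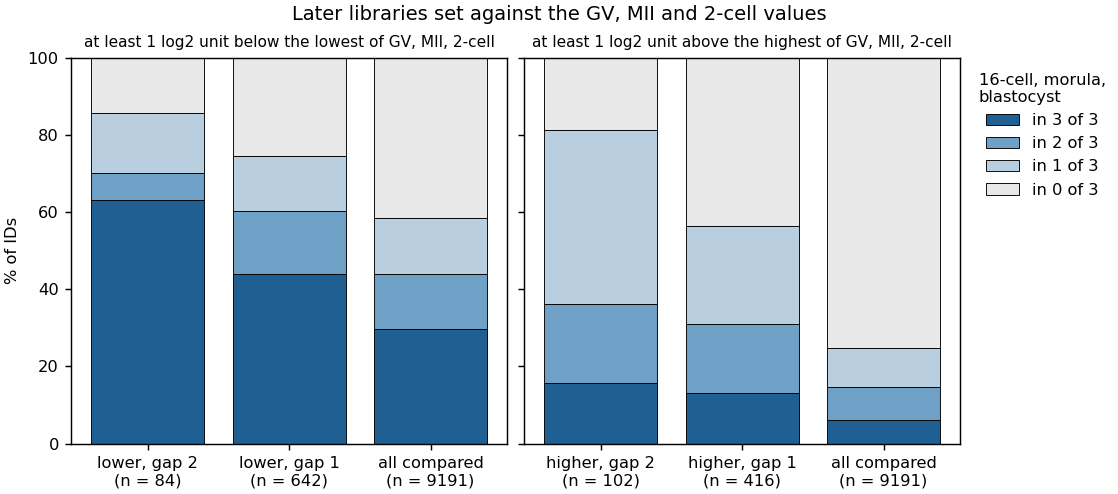
Stacked bars give the percentage of IDs past the GV, MII and 2-cell values by at least 1 log2 unit in 3, 2, 1 or 0 of the 16-cell, morula and blastocyst libraries, below the lowest value on the left and above the highest on the right. The dark segment is 63.1% of the 84 lower IDs with a gap of 2, 43.9% of the 642 with a gap of 1 and 29.7% of all IDs on the left, and 15.7% of the 102, 13.2% of the 416 and 6.21% of all IDs on the right.

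The 103 IDs from under 1 FPKM separated further by their later levels, again after these were seen. In 58 of them (56.3%) both the morula and the blastocyst values were under 1 FPKM, as were those of 1894 of all 9191 IDs (20.6%). These 58 are called the transient group here, a name that only restates how they were chosen. The 4-cell median was 14.0 FPKM, the 8-cell median 38.0 FPKM and the 16-cell median 5.82 FPKM, and the 8-cell value was above the 4-cell value for 50 of them. At the 16-cell stage 42 were at 1 FPKM or more and 16 (27.6%) were under it, against 1123 of all 9191 IDs (12.2%) under it. Below both their 4-cell and 8-cell values were 44 of the 58 (75.9%), against 5824 of all 9191 IDs (63.4%). The 58 held 0.147% of the FPKM sum at the 4-cell and 0.429% at the 8-cell stage. Of the 58, 19 were new-gene IDs (32.8%), against 1001 of the 1894 IDs under 1 FPKM in the same pair of libraries (52.9%). New-gene IDs were 26 of the 103 (25.2%) and 1253 of all 9191 IDs (13.6%). Without the 8-cell library the share under 1 FPKM in the morula and blastocyst was 36.5%, and without the 4-cell library 68.1%.

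The opposite course was taken by 27 IDs at 100 FPKM or more in both the morula and the blastocyst libraries. Their medians there were 4028 and 3391 FPKM, and they held 6.79% and 6.47% of the FPKM sum. At the 4-cell and 8-cell stages their medians were 29.6 and 8.01 FPKM, against medians listed at 0 in the GV, MII and 2-cell libraries. At the 16-cell stage the median was 1.10 FPKM, 7 were listed at 0 and none was above both its 4-cell and its 8-cell value. In contrast to the 58, the 4-cell value exceeded the 8-cell value for 25 of the 27. The 4-cell value was between 0.0365% and 44.2% of the morula value, with a median of 0.754%, and the 8-cell value between 0.0488% and 1.31%, with a median of 0.136%.

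These 27 were part of a wider set of 114 IDs in the table that were under 1 FPKM in the GV, MII and 2-cell libraries and at 100 FPKM or more in the morula and blastocyst. Of the 114, 86 were at 1 FPKM or more in the 4-cell library (75.4%), 57 in the 8-cell library (50.0%) and 52 in the 16-cell library (45.6%). A 4-cell value above the 8-cell value was not particular to the 27. It was seen in 80 of the 114 (70.2%) and in 5039 of all 9191 IDs (54.8%). Whether the low 4-cell and 8-cell values of the 27 IDs come from transcription at those stages or from carry-over between libraries was not tested. Without them the higher IDs were 389, with 84 at the gap of 2, and those from under 1 FPKM were 76. The remaining 18 of the 103 IDs had a median of 12.8 and 16.8 FPKM in the 4-cell and 8-cell libraries. Their median was highest at the 16-cell stage, at 55.9 FPKM, followed by 10.2 FPKM in the morula and 2.03 FPKM in the blastocyst.

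**Figure D4:**
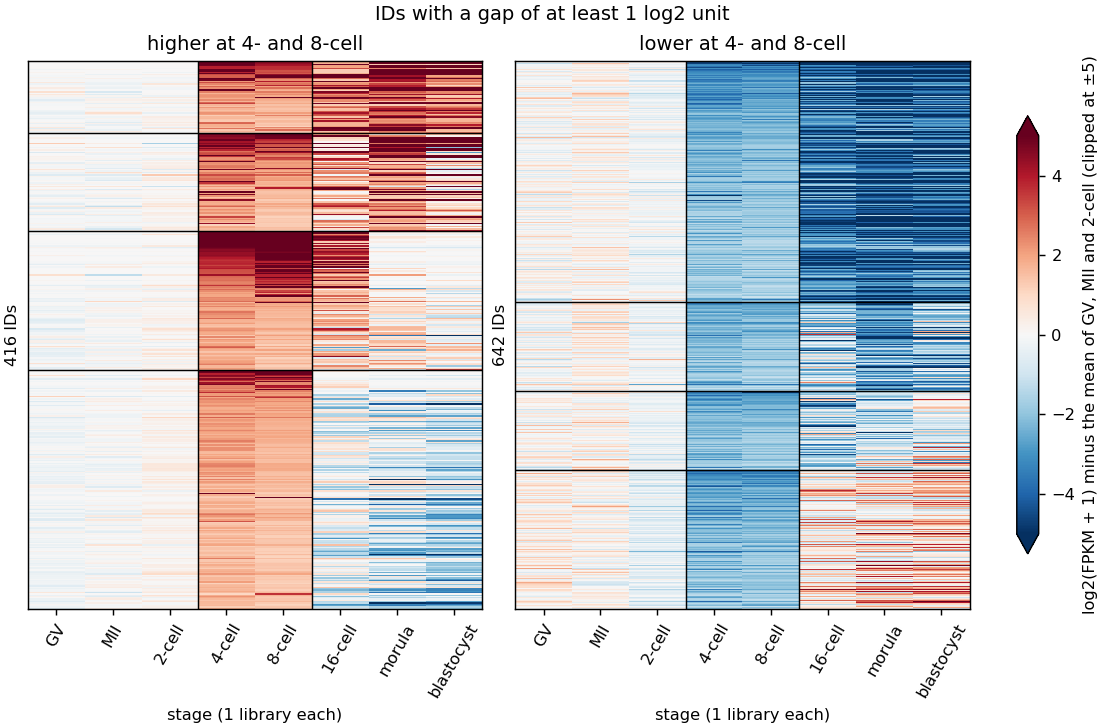
Each row is 1 ID with a gap of at least 1 log2 unit (416 higher on the left, 642 lower on the right) and each column 1 library in order of stage; colour gives log2(FPKM + 1) minus the mean of the ID's GV, MII and 2-cell values. Horizontal lines part the IDs past those values in 3, 2, 1 and 0 of the later libraries from top to bottom, where the lowest block of higher IDs (181) is mostly pale or blue late and the top block of lower IDs (282) stays blue.

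The ID with the widest gap among the higher IDs was gene5810. It stood at 227 and 270.0 FPKM in the 4-cell and 8-cell libraries, against 0.138 FPKM in the GV, 0.0115 FPKM in the MII and 0.0113 FPKM in the 2-cell library, a gap of 7.64 log2 units. It was at 9.96 and 0.165 FPKM in the 16-cell and morula libraries and listed at 0 in the blastocyst, so that it belongs to the transient group. The most abundant of the higher IDs was gene7413, at 10856.5 and 12406 FPKM in the 4-cell and 8-cell libraries, against 3797, 5160.4 and 3655 FPKM in the GV, MII and 2-cell libraries (gap 1.07). Already one of the abundant oocyte transcripts, gene7413 took 1.13% and 1.39% of the FPKM sum at the 4-cell and 8-cell stages. Its later values were 1478 FPKM in the 16-cell, 76.9 FPKM in the morula and 21.9 FPKM in the blastocyst library, all below its oocyte values.

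The widest gap among the lower IDs, 8.17 log2 units, was that of gene28331. Its values were 11.2 and 0.000101 FPKM in the 4-cell and 8-cell libraries, against 7366, 4412 and 3525 FPKM in the GV, MII and 2-cell libraries. It did not stay low, with 321 FPKM in the 16-cell, 1859.9 FPKM in the morula and 5561 FPKM in the blastocyst library. The last was within its oocyte range in FPKM. As a share of the FPKM sum it was 0.248%, below the 0.642%, 0.410% and 0.384% in the GV, MII and 2-cell libraries. The most abundant of the other lower IDs was gene19102, at 3721 and 4721 FPKM in the 4-cell and 8-cell libraries, against 9738, 9582 and 11068 FPKM in the GV, MII and 2-cell libraries (gap 1.02). It was at 114 FPKM in the 16-cell, 6.74 FPKM in the morula and 8.52 FPKM in the blastocyst library, so on the log2 scale most of its decrease came after the 8-cell stage.

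**Figure D5:**
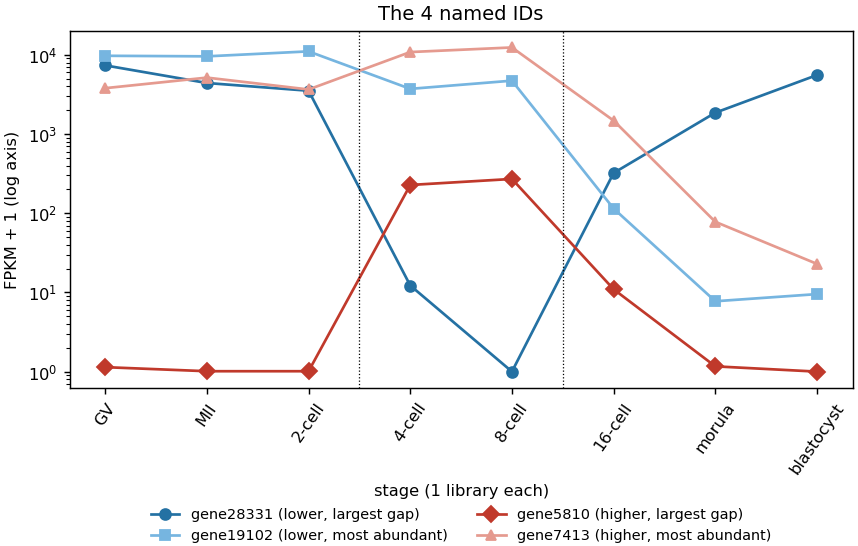
FPKM + 1 of the 4 named IDs in each library, in order of stage, on a log axis; dotted lines bound the 4-cell and 8-cell libraries. At the 8-cell stage gene7413 (12406 FPKM) is the highest and gene28331 (0.000101 FPKM) the lowest, and in the blastocyst gene28331 (5561 FPKM) is the highest.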

How the data were processed

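The authors deposited 1 table of FPKM values, named so in the file name, with 8 library columns tied to samples by their descriptions and grouped by title. No source used here gives the aligner, build, annotation or filters. In the labels, the extraction text names another tissue and was not used. None of the 28659 IDs matched a RefSeq gene table of assembly NDDB_SH_1, so planned gene lists had 0 members found, no sequence was printed and IDs that share reads with near-identical copies could not be marked. Values were taken to log2(FPKM + 1), so differences of low IDs are understated, and IDs with 10 FPKM or more in any of the 5 libraries were compared by the gap, with no test. Named IDs were, per direction, the one with the widest gap and the one with the highest mean FPKM on its higher side among the others with a gap of 1. Members, thresholds and lists were chosen with earlier results of these data known. The rule was also run on simulated data, with the noise of all 5 libraries set from the 4-cell to 8-cell difference. That spread is narrower than the one over the GV, MII and 2-cell libraries (medians 0.36 and 0.94 log2 units over all IDs). The simulation therefore gives no error rate for these data. Alternatives were pseudocount 0.1, no minimum or 30 FPKM, 2 scalings, side means, numbered IDs alone and leaving out libraries (Python 3.11.15, pandas 2.3.3).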

Additional observations from a re-analysis of the deposited data

How the results depend on the processing

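No paired analysis was possible because each stage has 1 library. Calling by the difference of side means between sides that do not overlap, a looser rule, gave 1916 lower and 1227 higher IDs at 1 log2 unit and 513 and 258 at 2, with 46.5% of lower IDs back, 9.62% of higher IDs still higher in all 3 later libraries and 76.1% of higher IDs back. A pseudocount of 0.1 gave 136 lower IDs at the gap of 2 and 18.6% of higher IDs still higher. A minimum of 30 FPKM, which leaves fewer IDs, gave 63 higher IDs at the gap of 2 and 54 higher IDs from under 1 FPKM, and no minimum gave 204 of the last. After rescaling to the same sum 51.9% of lower IDs were still lower, 34.5% of lower IDs back, 8.40% of higher IDs still higher and 81.4% of higher IDs back; the cause was not tested. Numbered IDs alone gave 36.9% still lower and 47.1% back among lower IDs. With 2 log2 units in place of 1 for the later libraries, 31.5% of lower IDs were still lower and 4.09% of higher IDs still higher. Leaving out 1 library, which asks fewer values to be apart but also leaves fewer IDs at the minimum, gave 847 to 1168 lower and 468 to 968 higher IDs, 117 to 220 and 110 to 254 at the gap of 2, and 91 to 126 higher IDs from under 1 FPKM. The shares then ran from 42.7% to 52.5% (lower IDs still lower), 34.3% to 44.9% (lower IDs back), 9.19% to 22.4% (higher IDs still higher), 57.0% to 74.8% (higher IDs back) and 36.5% to 68.1% (higher IDs from under 1 FPKM that were under 1 FPKM in the morula and blastocyst libraries). Omitting a later library can only raise the shares still lower or still higher, and can only cut the shares back. Without the 27 IDs high in the morula and blastocyst libraries, 76.3% of the remaining higher IDs from under 1 FPKM were under 1 FPKM there, by construction. This setting and the alternatives for the higher IDs from under 1 FPKM were chosen after seeing the data. Of 135 values recomputed, 91 stayed within 1.5 times the count or within the 95% binomial interval of the share. That interval treats IDs as independent, so it served only as a yardstick and is no replicate error. The balance of lower to higher IDs, 642 to 416 as reported, turned to 478 to 512 after rescaling to the same sum. Depth is unknown, so how far counting limits low values cannot be given.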
